A study of Mus musculus with 18 samples.

Results

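The 37 genes of the mouse mitochondrial genome were examined in RNA-seq libraries of mouse whole islets, the endocrine clusters of the pancreas that hold insulin-secreting beta cells. Members were all genes whose symbol in the count tables begins with mt-, which gave 37 of 53801 listed mouse genes: 13 protein-coding genes, 2 rRNA genes and 22 tRNA genes. All 37 lie on the mitochondrial chromosome, which holds no other gene in the GENCODE M21 annotation. The mice were 5 weeks old and fed normal chow. They were wild type (WT) or heterozygous for S64F in MAFA (S64F/+), a transcription factor that activates insulin genes in beta cells, and the series' title ties the S64F variant to inherited diabetes of the young (MODY). Males contributed 4 WT and 4 S64F/+ libraries and females 5 of each genotype, 18 in all, whose totals ranged from 19317971 to 108659014 counts with a median of 42.4 M. Whether each replicate was a different mouse is not stated in the labels, so a p-value here reflects only library-to-library spread, which may be technical.

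Mitochondrial DNA (mtDNA) is a small circular genome that is transcribed from both strands into long precursors by the RNA polymerase POLRMT with the factors TFAM and TFB2M. The precursors are cut largely at the tRNAs that punctuate them, which releases mRNAs, rRNAs and tRNAs. The mRNAs encode core subunits of respiratory complexes I, III and IV and of ATP synthase (complex V), and the rRNAs and tRNAs serve the translation of these mRNAs inside the organelle. In beta cells, ATP from this chain couples glucose metabolism to insulin secretion.

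The mouse reference genome also holds a copy of part of mtDNA in the nucleus, and its sequence bears on what the counts of several of these genes can show. On GRCm38, 7 annotated pseudogenes lie side by side on the minus strand of chromosome 1 between positions 24611535 and 24616197. They run in the same order as mt-Co1, mt-Co2, mt-Atp6, mt-Co3, mt-Nd3, mt-Nd4l and mt-Nd4, and the coordinates of the 2 sets match base for base except for a shift of 1 base before mt-Nd4l. Gm28661 was identical to mt-Co2 over 681 of 681 bases, Gm10925 to mt-Atp6 over 678 of 678 and Gm28437 to mt-Co3 over 783 of 783. Gm10222 was identical to mt-Nd4l over 294 of 294 bases and Gm28439 to mt-Nd4 over 876 of 876, the first part of that gene.

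Only 2 of the 7 pseudogenes differed from mtDNA at any base. Gm29216 matched the last part of mt-Co1 over 486 of 492 bases, with the substitutions T1056A, C1057T, A1059G, A1060G, C1062A and A1066T, where positions count from 1 at the first base of the mitochondrial gene and the mtDNA base stands first. Gm28438 matched mt-Nd3 over 344 of 345 bases, with the substitution T3C. The first 60 bases of each pair are shown because they hold every difference from mtDNA in these 7 pseudogenes. Another annotated gene, Gm13341, also shared 150-base windows with mt-Co2 and was not aligned. Capitals mark the differing bases, sequences run 5′ to 3′ and come from the GENCODE M21 transcripts on GRCm38. The mt-Co1 stretch is chrM:6381-6440 on the plus strand and that of Gm29216 is chr1:24616138-24616197 on the minus strand. The mt-Nd3 stretch is chrM:9459-9518 on the plus strand and that of Gm28438 is chr1:24613060-24613119 on the minus strand.
mt-Co1: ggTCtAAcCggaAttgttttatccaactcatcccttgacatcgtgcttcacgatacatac
Gm29216: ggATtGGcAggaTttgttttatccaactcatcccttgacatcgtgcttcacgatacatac
mt-Nd3: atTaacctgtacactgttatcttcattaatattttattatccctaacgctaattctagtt
Gm28438: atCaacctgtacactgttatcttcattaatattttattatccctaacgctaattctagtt

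The copied stretch corresponds to mtDNA positions 6394 to 11042, or 4649 bases. It contains the whole of mt-Co2, mt-Atp8, mt-Atp6, mt-Co3, mt-Nd3 and mt-Nd4l and of 5 tRNA genes, and parts of mt-Co1 and mt-Nd4. With the read length of 150 bases as a window, 99.4% of windows of mt-Co2, 99.4% of mt-Atp6, 99.8% of mt-Co3, 97.0% of mt-Nd3 and 98.0% of mt-Nd4l recurred exactly in an annotated nuclear transcript. The share was 59.2% for mt-Nd4 and 23.6% for mt-Co1. None of the 150-base windows of mt-Nd1, mt-Nd2, mt-Nd5, mt-Nd6, mt-Cytb or the 2 rRNA genes recurred. With shorter windows of 50 bases, 8.19% of those of mt-Nd2, 7.61% of mt-Nd5 and 1.04% of mt-Rnr2 did recur. At that length the share was 62.2% for mt-Nd4 and 51.1% for mt-Co1. These shares hold only for annotated transcripts, since the nuclear genome itself was not searched.

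mt-Atp8, a small subunit of ATP synthase, lies inside the copied stretch by position, but no annotated pseudogene covers it. Its sequence, chrM:7766-7969 on the plus strand, is shown with its last 43 bases in capitals, which it shares with the start of mt-Atp6 and therefore with Gm10925.
mt-Atp8: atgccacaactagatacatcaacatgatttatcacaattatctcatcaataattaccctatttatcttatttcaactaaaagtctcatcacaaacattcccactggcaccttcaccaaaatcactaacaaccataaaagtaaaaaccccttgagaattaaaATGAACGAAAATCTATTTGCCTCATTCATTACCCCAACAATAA

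Levels per length differed by orders of magnitude along the genome. On the deposited FPKM scale (fragments per kilobase of gene length, scaled to the library total), mt-Co1, the catalytic core of cytochrome c oxidase (complex IV), had the highest median over the 18 libraries, 3746. It was followed by mt-Cytb, the cytochrome b of complex III, at 2758. The complex I genes mt-Nd1, mt-Nd5, mt-Nd2 and mt-Nd4 had medians of 1895, 1229, 1116 and 744. The ranges over libraries of neighbours in this order overlapped, for example 3135 to 6275 for mt-Co1 and 2302 to 3465 for mt-Cytb. Within a library, each gene was nevertheless above the next one in 18 of 18 libraries, except that mt-Nd5 was above mt-Nd2 in 17 of 18. This order rests on full gene lengths, and the place of mt-Nd4 depends on that choice, as given below.

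The rRNA of the large mitochondrial ribosomal subunit, mt-Rnr2, had a median FPKM of 392 and that of the small subunit, mt-Rnr1, 117. Their ranges, 245 to 661 and 78.5 to 229, did not overlap. Both were lower than each of the mRNA medians named so far. How the libraries selected RNA, by poly(A) tail or by removal of rRNA, is not given in the sources used here. mt-Nd6, the complex I subunit encoded on the other strand from all other mRNA genes, had a median of 41.3 and a range of 26.8 to 69.1, below every library's value of mt-Rnr1.

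The 6 mRNA genes that lie wholly inside the copied stretch were the lowest of the 13. Their median FPKM was 4.93 for mt-Co2 and 4.49 for mt-Co3 (both complex IV), 4.13 for mt-Atp6 and 2.27 for mt-Atp8 (complex V), and 2.84 for mt-Nd3 and 1.45 for mt-Nd4l (complex I). In every library all 6 lay between 0.716 and 8.87, below the lowest value of any other mRNA gene, 26.8. They received 9082 counts over all 18 libraries, or 0.0736% of the counts of mitochondrial mRNA genes, against 44.7% for mt-Co1 and mt-Nd4 and 55.3% for the 5 genes outside the stretch. How the authors' counting treated reads that match more than 1 place is not given in the sources used here, and its part in these low values was not tested. The levels of these 6 genes are therefore uncertain, as are those of the 2 genes that lie partly inside. As a choice made after seeing the data, only the bases of mt-Co1 and mt-Nd4 outside the recurring 150-base windows were taken as their length. The medians then rose from 3746 to 5430 for mt-Co1 and from 744 to 2042 for mt-Nd4. For mt-Co1 this length was 1066 bases, but 388 with 50-base windows, so its adjusted median depends on the window. For mt-Nd4 it was 502 bases with either window, and its adjusted median lay above the medians of mt-Nd1 (1895), mt-Nd5 (1229) and mt-Nd2 (1116).

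**Figure D1:**
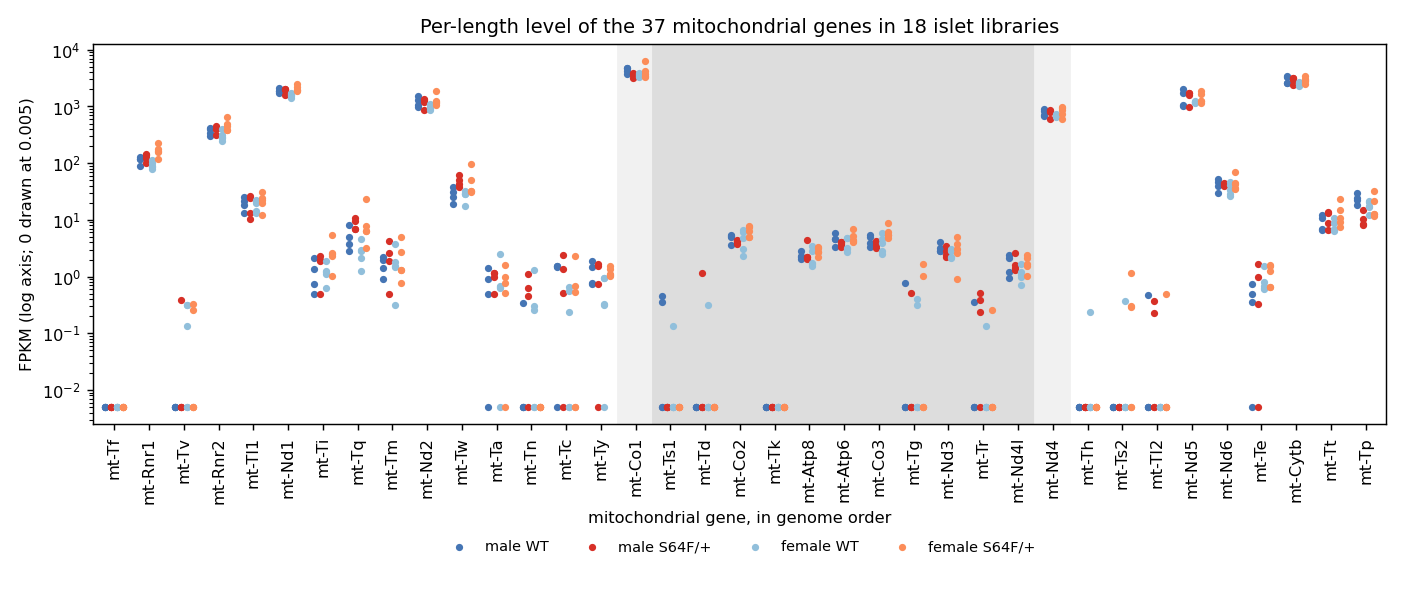
FPKM (log axis, with 0 drawn at 0.005) of the 37 mitochondrial genes in genome order, 1 point per library, coloured by group; dark shading marks genes wholly inside the stretch copied on chromosome 1 and light shading the 2 genes partly inside. Every point of the 6 shaded mRNA genes lies between 0.716 and 8.87, and every point of the other mRNA genes at or above 26.8.

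**Figure D2:**
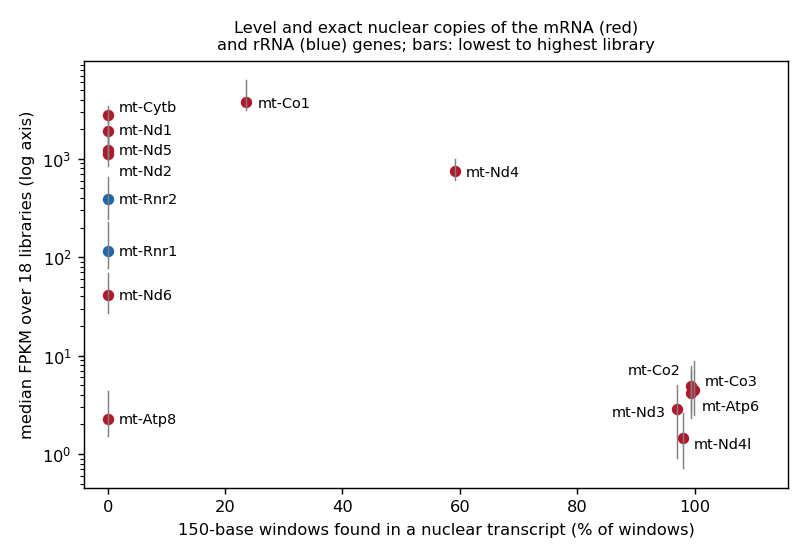
Median FPKM over 18 libraries (log axis, bars from the lowest to the highest library) of the 13 mRNA genes (red) and 2 rRNA genes (blue) against the percentage of their 150-base windows found in an annotated nuclear transcript. The 5 genes at 97.0% or more have medians under 5, and mt-Atp8, whose windows recur in no annotated transcript though it lies within the copied stretch, has a median of 2.27.

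The nuclear pseudogenes themselves received counts of the same order as their mitochondrial partners inside the stretch. Gm28661 had a mean of 172 counts per library beside 145 for mt-Co2, Gm28437 had 192 beside 152 for mt-Co3, and Gm10925 had 175 beside 123 for mt-Atp6. Gm28439 had a mean of 71.4 counts beside 45635 for mt-Nd4, and Gm29216 had 97.0 beside 260516 for mt-Co1. All 7 pseudogenes together had 302 to 1294 counts per library, so adding them to the mitochondrial mRNA counts moved each group's mean share by less than its SD.

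One library departed from the others in how the reads of mt-Nd3 and Gm28438 were divided, a comparison made after the values were seen. Female S64F/+ library 1 had 73 counts of Gm28438 and 14 of mt-Nd3, so that 83.9% of the pair's 87 counts fell on the nuclear copy (exact 95% binomial interval 74.5 to 90.9%, which covers counting error only). In the other 17 libraries the nuclear copy took 13.9 to 39.6% of the pair's counts, with a median of 24.0%. mt-Nd3 and Gm28438 are the pair that differ by the single substitution T3C shown above. In the same library the copies of mt-Co2, mt-Co3, mt-Atp6 and mt-Nd4l, which carry no difference, took 51.8, 55.2, 64.1 and 61.7% of their pairs' counts, within the ranges of the other libraries, 43.4 to 57.5%, 51.8 to 60.3%, 53.2 to 64.8% and 41.7 to 79.2%. The level of mt-Nd3 in this library, 0.301 CPM (counts scaled to library size as described below), was the lowest of the 18. The cause was not tested.

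The tRNA genes, 59 to 75 bases long and thus shorter than the reads, were barely counted. mt-Tf and mt-Tk, for phenylalanine and lysine, had 0 counts in all 18 libraries, and another 15 tRNA genes had at most 15 counts in any library and were not tested. The 5 that passed the filter on low counts were mt-Tw (tryptophan), mt-Tl1 (leucine), mt-Tp (proline), mt-Tt (threonine) and mt-Tq (glutamine), with median FPKM of 32.0, 20.8, 17.2, 8.97 and 5.63. All 5 lie outside the copied stretch, whose 5 tRNA genes shared 28 counts over all libraries. The strand setting of the counting is not given in the sources used here, so reads of the minus-strand genes mt-Tp, mt-Tq and mt-Nd6 cannot be told apart from reads of the opposite strand.

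Mitochondrial mRNA genes took 1.27 to 2.28% of all counts. The share was 1.45, 1.50, 1.87 and 2.00% in the male WT libraries 1 to 4 (mean 1.70% ± 0.27, SD, n = 4) and 1.70, 1.27, 1.63 and 1.69% in male S64F/+ (1.57% ± 0.20, n = 4). It was 1.43, 1.34, 1.36, 1.48 and 1.47% in female WT (1.42% ± 0.062, n = 5) and 1.78, 1.59, 2.28, 1.40 and 1.47% in female S64F/+ (1.71% ± 0.35, n = 5). The ranges of WT and S64F/+ overlapped in each sex, and female S64F/+ library 3 was the highest of all 18. Since a sum over chosen genes has no test here, the group means are given as a description. Without that library the female S64F/+ mean was 1.56%. The 2 insulin genes took on average 21.7% (WT) and 13.4% (S64F/+) of counts in males and 19.1% (WT) and 17.3% (S64F/+) in females, which lowers the share of every other gene where insulin is high. With insulin left out of the total, the mitochondrial mRNA means were 2.18, 1.82, 1.76 and 2.07% in the same order.

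The balance of rRNA to mRNA also varied between libraries. Per 100 mitochondrial mRNA counts, males had 4.06 ± 0.71 rRNA counts in WT and 4.69 ± 0.22 in S64F/+ (mean ± SD, n = 4 each). Females had 4.04 ± 0.68 in WT and 5.43 ± 1.08 in S64F/+ (n = 5 each). The 5 female S64F/+ libraries stood at 4.03, 4.79, 5.54, 6.83 and 5.98, of which the last 3 exceeded every other library of the study. Library 3, the highest for mRNA, was not the highest for this ratio, and the ranges of the female groups overlapped, since female WT reached 5.03.

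**Figure D3:**
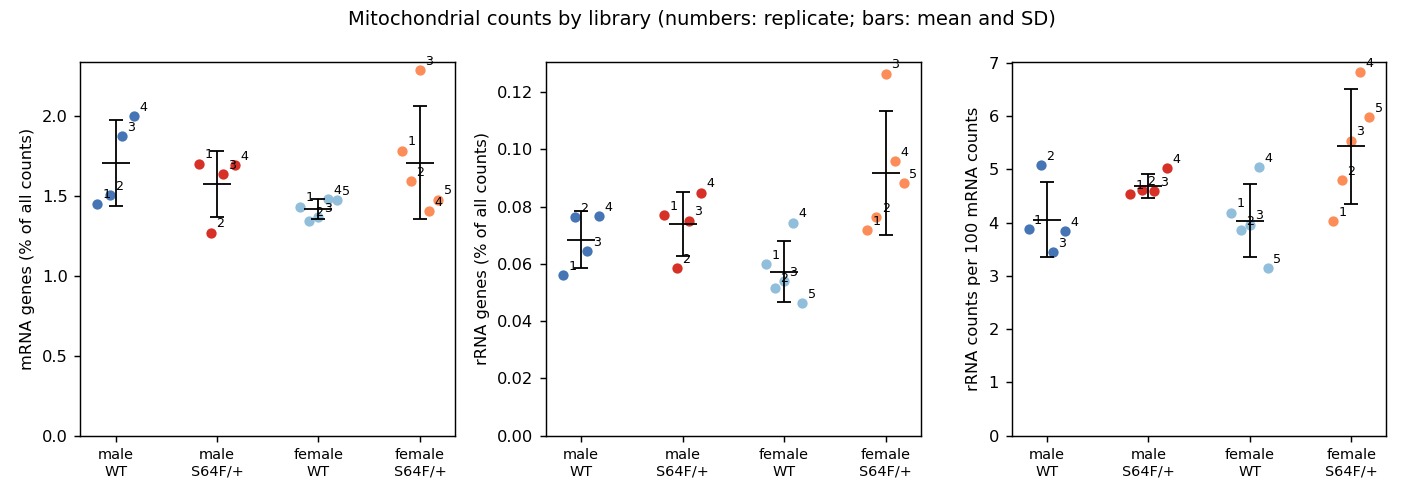
Mitochondrial mRNA and rRNA genes as a percentage of all counts and rRNA counts per 100 mRNA counts, 1 numbered point per library with group mean and SD. Female S64F/+ library 3 has the highest mRNA share, 2.28%, and female S64F/+ library 4 the highest rRNA ratio, 6.83.

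Genotype was compared within each sex to ask how heterozygosity for S64F relates to these transcripts in male and female islets. Of the 37 genes, 20 had enough counts for testing: all 13 mRNA genes, both rRNA genes and 5 tRNA genes. They were measured in the same libraries, so a count over these genes is not a count of independent results. Levels are CPM, counts scaled to library sizes adjusted by the trimmed mean of M values (TMM), and a gene was called where edgeR's quasi-likelihood test gave an adjusted p under 0.05 over all 18364 genes tested. In bulk islets, fewer cells of a type and less RNA per cell cannot be told apart.

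In males, mt-Co1 and mt-Tp were lower in S64F/+ islets and no mitochondrial gene was called higher. The 2 of 20 called lower stand beside 12.3% of all genes called lower and 15.4% called higher in this comparison, so the count lies near the background. None of the 20 was higher at an unadjusted p under 0.05, and DESeq2 also called 0 higher. At that unadjusted p, 3668 of all 18364 genes were higher, and DESeq2 called 3170 of 18263 higher. All 13 mRNA genes had negative fold changes, from -0.03 to -0.51, and the median over the 20 genes was -0.24 on the log2 scale beside -0.03 over all genes tested.

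mt-Co1 stood at 6179, 6247, 7866 and 8273 CPM in male WT libraries and at 5089, 4341, 5363 and 5242 CPM in male S64F/+. The groups did not overlap, with means of 7141 ± 1085 and 5009 ± 459 CPM (SD, n = 4 each). The log2 fold change was -0.51 ± 0.18 (SE) with an edgeR adjusted p of 0.0458. The call was close to the threshold: when single libraries were left out, 10 of 18 fits lost it, among them those without male WT library 3 or 4 and without each male S64F/+ library in turn (adjusted p up to 0.134), and with plain library sizes the change was -0.28 (adjusted p 0.195).

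The other complex IV mRNAs, mt-Co2 and mt-Co3, had log2 fold changes of -0.45 ± 0.31 (edgeR adjusted p 0.307) and -0.45 ± 0.30 (0.284), with levels of only 2.25 to 4.52 CPM in male libraries. mt-Cytb of complex III fell short of the threshold at -0.27 ± 0.15 (0.192). Among complex I genes the changes ran from -0.18 for mt-Nd4l to -0.47 for mt-Nd3 and none was called. mt-Atp6 and mt-Atp8 of complex V had -0.50 ± 0.27 (0.178) and -0.03 ± 0.35 (0.961). The rRNAs were close to 0 in males, at -0.04 ± 0.21 for mt-Rnr1 and -0.12 ± 0.21 for mt-Rnr2. With plain library sizes, which shifted the median of all genes from -0.03 to 0.19, the values of both rRNAs, mt-Atp8, mt-Nd4l, mt-Nd5 and mt-Nd6 turned positive, as did that of the tRNA gene mt-Tt.

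mt-Tp, the proline tRNA at the end of the gene map, had the smallest adjusted p of the 20 genes in males. It stood at 1.77, 1.49, 1.26 and 2.24 CPM in WT and 0.613, 0.494, 0.507 and 0.953 CPM in S64F/+ libraries, with no overlap. The log2 fold change was -1.39 ± 0.34 with an edgeR adjusted p of 0.00544, and it was called in all 18 fits that left out 1 library (adjusted p up to 0.0235) and under each of the 8 other settings. The counts behind it were low, 16 to 160 per library over the study. Its neighbour mt-Tt, the threonine tRNA on the opposite strand that ends where mt-Tp begins, had 0.498, 0.698, 0.466 and 0.912 CPM in WT males and 0.385, 0.525, 0.791 and 0.856 CPM in S64F/+ males. These groups overlapped, and the change was -0.02 ± 0.38 (adjusted p 0.975).

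The sequences of both neighbours and of mt-Tq, which was called in females, are shown because these are the tRNA genes the comparisons turn on. mt-Tp is chrM:15356-15422 on the minus strand, mt-Tt is chrM:15289-15355 on the plus strand and mt-Tq is chrM:3772-3842 on the minus strand. Capitals mark the 3 bases at the end of mt-Tq whose positions also belong to mt-Ti, on the opposite strand.
mt-Tp: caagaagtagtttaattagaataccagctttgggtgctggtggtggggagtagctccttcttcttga
mt-Tt: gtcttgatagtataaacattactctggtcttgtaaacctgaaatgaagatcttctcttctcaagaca
mt-Tq: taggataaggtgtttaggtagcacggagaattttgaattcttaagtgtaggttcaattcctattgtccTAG

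Markers of other cells moved with the male comparison. Of 10 beta-cell markers 9 were called lower, and their summed level was 212666 to 290255 CPM in WT and 127001 to 141217 CPM in S64F/+ libraries. Called higher were 9 of 10 stellate-cell and fibroblast markers (244 to 566 CPM in WT and 1612 to 2453 CPM in S64F/+), 6 of 8 ductal, 6 of 8 endothelial, 6 of 8 macrophage, 4 of 6 Schwann-cell and 3 of 4 delta-cell markers. Called lower were the endothelial marker Esm1 and the macrophage marker C1qa. Of 3 tested lymphocyte markers, 1 was called higher and 1 lower. Over all genes tested, 15.4% were called higher and 12.3% lower. Of 6 alpha-cell and 2 PP-cell markers 0 were called, but 5 and 2 were called higher with plain library sizes. Those sizes called 4248 of all 18364 genes higher. Of 14 acinar markers and 5 red blood cell genes 0 were called. No marker of these lists was at 0 in all libraries. Their part in the lower mt-Co1 and mt-Tp was not tested.

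In females, 4 mitochondrial genes were called higher in S64F/+ islets, namely both rRNAs, mt-Nd1 and mt-Tq, and none was called lower. The 4 of 20 stand beside 10.2% of all genes called higher and 11.0% called lower. None was lower at an unadjusted p under 0.05, where 8 were higher, and DESeq2 called 5 higher and 0 lower. At that unadjusted p, 3093 of all 18364 genes were higher and 3171 lower. DESeq2 called 2242 of 18263 genes higher and 2234 lower. All 20 fold changes were positive, with a median of 0.43 beside 0.02 over all genes tested. The size of these changes depended on female S64F/+ library 3, which had the highest level of all 18 libraries in 15 of the 20 genes and the highest of its group in 17. Without it, 2 of 20 were called higher, 18 of 20 fold changes were positive and their median was 0.28. That fit called 1501 of 18438 genes higher, so the count of 2 lies near the background.

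mt-Rnr1, the small-subunit rRNA, stood at 93.5, 77.6, 81.7, 120 and 80.6 CPM in female WT libraries and at 106, 147, 243, 178 and 163 CPM in female S64F/+. Library 1 of S64F/+ fell below the highest WT library, and the other 4 lay above all WT libraries. The log2 fold change was 0.88 ± 0.19 (edgeR adjusted p 0.00258), and without library 3 it was 0.71 ± 0.17 (0.0068). The call held in all 18 fits that left out 1 library and under each of the 8 other settings.

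mt-Rnr2, the large-subunit rRNA, stood at 493, 412, 440, 705 and 417 CPM in female WT and at 578, 587, 1162, 845 and 764 CPM in female S64F/+ libraries. Female WT library 4, at 705 CPM, lay above 2 of the S64F/+ libraries. The log2 fold change was 0.67 ± 0.19 (edgeR adjusted p 0.0167), and without library 3 of S64F/+ it was 0.49 ± 0.17 and no longer called (0.056).

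mt-Nd1, a core subunit of complex I whose gene follows mt-Rnr2 and the leucine tRNA mt-Tl1, was the mRNA called in females. It stood at 1434, 1426, 1296, 1742 and 1802 CPM in WT and at 2029, 1820, 2676, 1898 and 1966 CPM in S64F/+ libraries. The groups did not overlap, though the gap between the highest WT and the lowest S64F/+ library was narrow. The log2 fold change was 0.43 ± 0.13 (edgeR adjusted p 0.0194), and without library 3 it was 0.32 ± 0.11 (0.0592). The call was also lost without female WT library 1 or library 3.

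mt-Tq, the glutamine tRNA, stood at 0.315, 0.192, 0.205, 0.166 and 0.0945 CPM in female WT and at 0.430, 0.220, 1.87, 0.481 and 0.586 CPM in female S64F/+ libraries. S64F/+ library 2 lay within the WT range, and library 3 was more than any other library of the study. The log2 fold change was 1.79 ± 0.47 (edgeR adjusted p 0.0114), and without library 3 it was 1.12 ± 0.37 (0.0449). It rested on 4 to 48 counts per library.

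The other mRNA genes did not pass the test in females. Complex I genes ran from 0.26 for mt-Nd3 to 0.57 for mt-Nd4l, and mt-Cytb of complex III had 0.26 ± 0.13 (edgeR adjusted p 0.18). mt-Co1, called lower in males, had 0.25 ± 0.16 (0.3) in females and 0.02 without S64F/+ library 3. Its female WT libraries stood at 5551, 4940, 5218, 6692 and 5980 CPM and its female S64F/+ libraries at 6205, 5600, 10779, 5753 and 5475 CPM, so that 4 of the 5 lay within the WT range. mt-Co2 and mt-Co3 had 0.47 ± 0.27 (0.231) and 0.62 ± 0.26 (0.1), and mt-Atp6 and mt-Atp8 had 0.44 ± 0.24 (0.205) and 0.35 ± 0.31 (0.451). Of the tRNA genes, mt-Tw had 0.85 ± 0.31 (0.0555), mt-Tt 0.75 ± 0.34 (0.127), mt-Tl1 0.29 ± 0.30 (0.539) and mt-Tp 0.06 ± 0.30 (0.923).

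**Figure D4:**
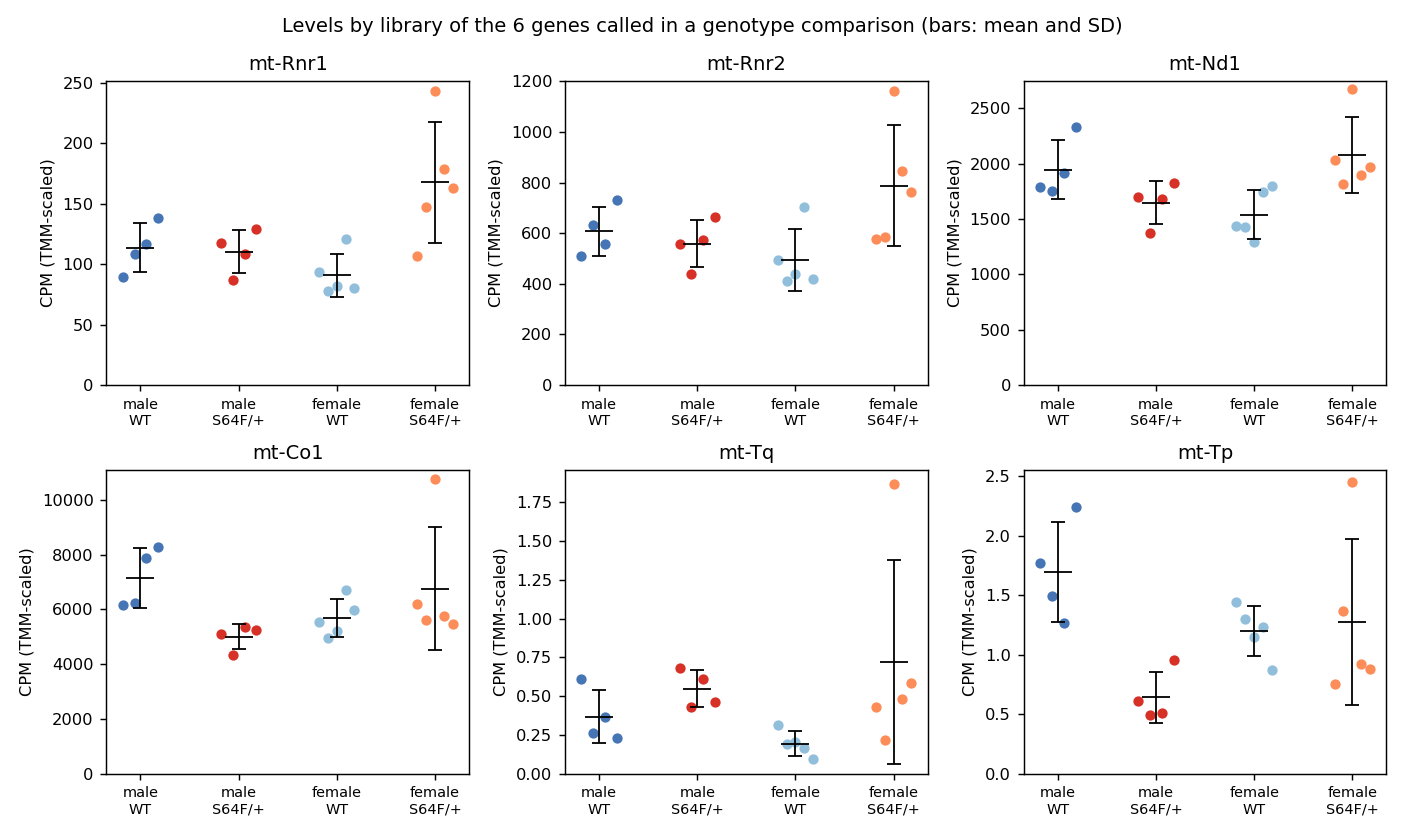
CPM (TMM-scaled, axes from 0) by library for the 6 genes called in a genotype comparison, with group mean and SD. Male WT and S64F/+ points do not overlap for mt-Co1 and mt-Tp, and the highest female S64F/+ point in each panel is library 3, at 10779 CPM for mt-Co1.

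Markers of other islet cells moved with the female comparison too. Called higher were 6 of 6 alpha-cell markers (34105 to 42391 CPM summed in WT and 59717 to 82781 CPM in S64F/+), 4 of 4 delta-cell, 2 of 2 PP-cell and 5 of 8 macrophage markers. Also higher were 2 of 8 ductal, 1 of 10 stellate-cell and fibroblast, 1 of 6 Schwann-cell and 1 of 3 tested lymphocyte markers. Without S64F/+ library 3, or with plain library sizes, 0 of the 10 stellate-cell and fibroblast markers were called. Of 14 acinar markers and 5 red blood cell genes 0 were called. Called lower were 8 of 10 beta-cell markers (167641 to 308416 CPM and 132507 to 244805 CPM, ranges that overlapped), 1 of 8 endothelial and 1 of 3 tested lymphocyte markers. Over all genes tested, 10.2% were called higher and 11.0% lower. No marker of these lists was at 0 in all libraries. Library 3 of S64F/+ had 77282 CPM of alpha-cell, 244805 CPM of beta-cell and 48599 CPM of acinar markers, the last 2 being the highest of its group. It was also the highest of its group in the summed markers of PP cells (16495 CPM, group median 8690), stellate cells and fibroblasts (1084, median 652), endothelial cells (726, median 597), Schwann cells (91.5, median 50.3) and red blood cells (31.7 CPM). The part of these cells in the higher mitochondrial levels was not tested.

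The genotype effect was then compared between the sexes by the difference of the male and female log2 fold changes. All 20 differences were negative (male below female), with a median of -0.74 beside 0.01 over all genes tested, and 11 had an unadjusted p under 0.05. At that p, 2212 of all 18364 genes tested were lower and 2261 higher. After adjustment, mt-Nd1 was called, at -0.67 ± 0.19 (edgeR adjusted p 0.0478), which is 1 of 20 beside 1.6% of all genes called lower and 2.87% called higher. None was higher at an unadjusted p under 0.05. DESeq2 called 5 lower and 0 higher, beside 821 lower and 1107 higher of 16131 genes. The mt-Nd1 call did not hold with replicate number as a block, a fit that compares same-numbered libraries (-0.67, adjusted p 0.06), nor without female S64F/+ library 3 (0.0564), nor without male WT library 4 (0.117), and it held in 5 of 18 fits with a single library left out. mt-Rnr1 had -0.92 ± 0.28 (0.0615), mt-Tp -1.44 ± 0.46 (0.0689) and mt-Co1 -0.76 ± 0.25 (0.0749).

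**Figure D5:**
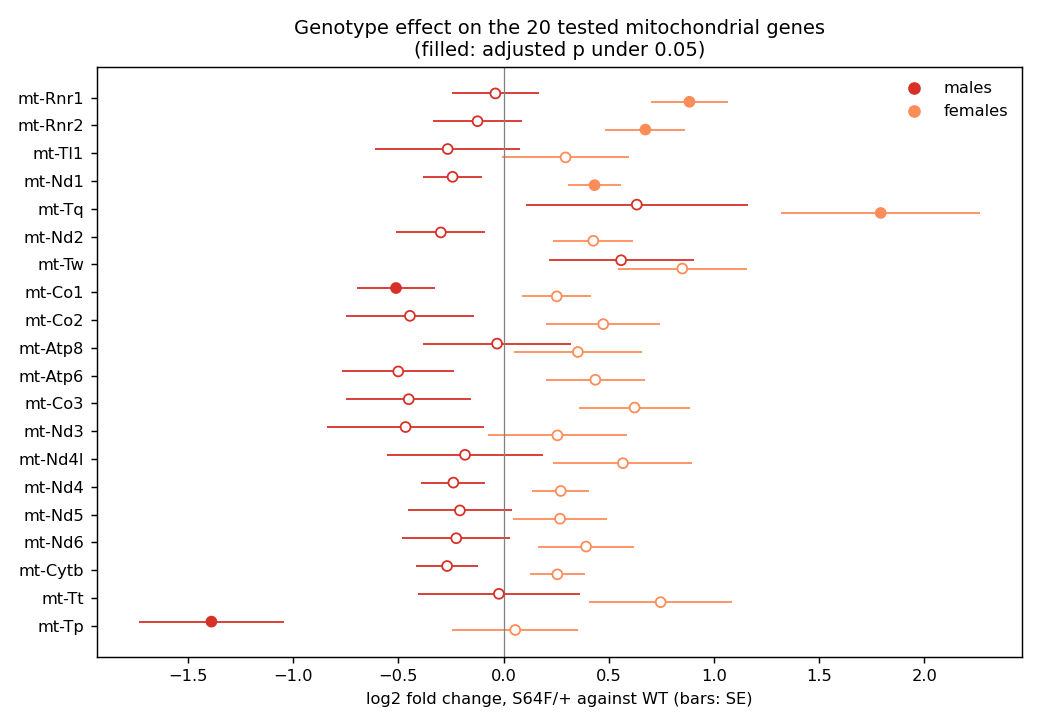
Log2 fold change of S64F/+ against WT with its SE for the 20 tested mitochondrial genes in genome order, in males and females; filled points passed the edgeR adjusted p threshold of 0.05. The female point lies to the right of the male point for each of the 20 genes, and the filled points are mt-Co1 and mt-Tp in males and mt-Rnr1, mt-Rnr2, mt-Nd1 and mt-Tq in females.

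Male and female islets were also compared within each genotype, with the same libraries as above. In WT, no mitochondrial gene was called by edgeR or DESeq2, beside 1.73% of all genes called higher in males and 0.637% called lower. All 20 values were positive with a median of 0.32, and 2 of them, mt-Nd1 and mt-Cytb, had an unadjusted p under 0.05 (adjusted 0.185 and 0.246). At that p, 1623 of all 18364 genes tested were higher and 1671 lower. In S64F/+, 2 of 20 were called lower in males than in females, beside 8.12% of all genes called lower and 8.0% called higher, which lies near the background. None was higher at an unadjusted p under 0.05, where 2977 of all 18364 genes were. DESeq2 called 4 lower and 0 higher, beside 1734 lower and 2059 higher of 17906 genes. The 2 edgeR calls were mt-Rnr1 at -0.60 ± 0.20 (edgeR adjusted p 0.0459) and mt-Co3, the third core subunit of complex IV, at -0.87 ± 0.28 (0.043).

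For mt-Co3, male S64F/+ libraries stood at 2.97, 2.25, 2.60 and 2.98 CPM and female S64F/+ libraries at 3.53, 4.10, 7.73, 5.09 and 4.40 CPM, without overlap. mt-Co3 lies inside the copied stretch, so its counts are uncertain in the way described above. Both calls were lost without female S64F/+ library 3, with adjusted p of 0.108 for mt-Rnr1 and 0.105 for mt-Co3. Over all 18 fits that left out 1 library, mt-Co3 was called in 11 and mt-Rnr1 in 4.

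The nuclear genes whose products start transcription on mtDNA did not pass the test in either sex. Polrmt, the mitochondrial RNA polymerase, had log2 fold changes of 0.00 in males and -0.06 in females (edgeR adjusted p 0.978 and 0.647), and Tfb2m, which opens the promoter with it, 0.11 and -0.02 (0.523 and 0.923). Tfam, which packages mtDNA and activates its transcription, averaged 30.5 ± 1.24 CPM in WT males and 25.4 ± 1.53 CPM in S64F/+ males (SD, n = 4 each), a change of -0.27 that missed the threshold (0.0787). In females it was 0.09 (0.585).

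Of 24 genes of mitochondrial transcription and mtDNA maintenance, 2 were called higher and 1 lower in each sex, shares that do not exceed those over all genes (15.4% higher and 12.3% lower in males, 10.2% and 11.0% in females). Without female S64F/+ library 3, which enters the male comparison only through the shared estimate of spread, 5 were called lower in males. That fit called 2552 of 18438 genes lower. With plain library sizes 0 of the 24 were called lower, beside 666 of 18364 genes. The carrier gene Slc25a33, which transports pyrimidine nucleotides into mitochondria, rose by 0.69 in males and 1.10 in females (edgeR adjusted p 0.0111 and 0.000146). Top1mt, the mitochondrial topoisomerase, rose by 0.71 and 0.58 (0.00993 and 0.0202). Tfb1m, which methylates the small-subunit rRNA, fell by 0.41 in males (0.0267), and Slc25a36, another pyrimidine nucleotide carrier, fell by 0.34 in females (0.006).

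Of 28 genes of mitochondrial RNA processing and stability, 5 were called lower and 0 higher in males and 4 were called higher and 0 lower in females. These counts stand beside 12.3% of all genes called lower in males and 10.2% called higher in females, and lie near that background. In males these were Pus1, which makes pseudouridine in tRNAs, at -0.32 (edgeR adjusted p 0.00502), Fastkd2 at -0.36 (0.00597), Mto1, a tRNA modification enzyme, at -0.37 (0.00666), Grsf1, an RNA granule protein, at -0.22 (0.0183), and Trmt10c, a subunit of mitochondrial RNase P, at -0.41 (0.00878). With plain library sizes, which shift all male values upward, 0 of the 28 were called lower and 2 higher in males, and the median over the list went from -0.08 to 0.14. Of all 18364 genes, 666 were then called lower and 4248 higher. In females Slirp, which binds and stabilises mitochondrial mRNAs with LRPPRC, rose by 0.59 (0.00375). Rexo2, an oligoribonuclease, rose by 0.34 (0.0159), Lrpprc by 0.20 (0.0286) and Trnt1, which adds CCA to tRNA ends, by 0.22 (0.0481).

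Lrpprc also had a called difference between the sexes, at -0.36 (edgeR adjusted p 0.0414). Its male change was -0.16 (0.108), with 90.0 ± 5.98 CPM in WT and 80.7 ± 6.15 CPM in S64F/+ libraries, and its female means were 85.9 ± 3.01 and 98.7 ± 5.89 CPM (SD, n = 5 each).

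Of 13 regulators of mitochondrial biogenesis, 1 was called higher in each sex, and 1 was called lower in males and 2 in females, beside 15.4% of all genes higher and 12.3% lower in males and 10.2% and 11.0% in females. Ppargc1a, a coactivator that drives biogenesis, rose by 1.26 in males and 1.59 in females (edgeR adjusted p 0.0372 and 0.00744), from low levels of 2.21 ± 1.21 and 1.34 ± 0.662 CPM in WT. Nrf1, a transcription factor of respiratory genes, fell by 0.29 and 0.37 (0.0159 and 0.00202). Ppargc1b fell by 0.67 in females (0.0191) and had 0.18 in males (0.589). No other gene of this list was called in either sex. The male call of Ppargc1a was lost without male WT library 4, where 0 of the 13 were called higher, and that of Nrf1 with plain library sizes, where 0 were called lower and 3 higher. The first of these fits called 2268 of 18894 genes higher. The second called 666 of 18364 lower and 4248 higher.

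The nuclear-encoded partners of the mtDNA-encoded subunits are given for comparison. Of 37 such genes for complexes I, III, IV and V, 2 were called lower and 0 higher in males, namely Uqcrc2 and Ndufb8, with a median of -0.13, beside 12.3% of all genes called lower. In females 20 were called higher and 0 lower, beside 10.2% and 11.0% of all genes, with a median of 0.42. Without S64F/+ library 3, 15 were called higher with a median of 0.31, beside 1501 of 18438 genes called higher. By smallest p the 20 called with all libraries were led by Atp5o at 0.55 (edgeR adjusted p 0.00501), Ndufb10 at 0.45 (0.00547), Ndufb3 at 0.56 (0.00615) and Cox6b1 at 0.65 (0.00636), subunits of complexes V, I, I and IV. The summed level of the 37 genes was 2752 to 3807 CPM in female WT and 3337 to 4591 CPM in female S64F/+ libraries, and the highest, as for most mitochondrial genes, was library 3.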

How the data were processed

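Islet RNA of 18 libraries, grouped by the sample titles, was measured by paired-end RNA-seq. The authors deposited raw counts per gene on GRCm38 and FPKM values. Tools listed in the submitters' processing notes, without versions or roles, were FastQC, STAR, MultiQC, featureCounts and DESeq2. Which annotation was used, whether counting used strand and how reads matching several places were treated is not given in the sources used here. Deposited FPKM equalled count over total over 1 length for all 33562 genes with a count (relative tolerance 1e-06), and served only to compare levels between genes. Of 53900 listed features, 99 spike-ins had 0 counts and were left out.

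In R 4.3.3, edgeR 4.0.16 (limma 3.58.1) fitted 1 robust quasi-likelihood model with 4 group coefficients to all libraries, after filterByExpr (minimum count 10, total 15) and TMM scaling. It kept 18364 genes, with a biological coefficient of variation of 24.4%. P-values were two-sided and Benjamini-Hochberg adjusted over all genes in each comparison. The SE is the log2 fold change over the root of F. The model was tested on simulated data. Alternatives were other scalings, no filter, DESeq2 1.42.0, 1 sex only, a replicate block and leaving out each library.

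Gene positions and sequences came from GENCODE M21, in which 53706 of 53801 gene identifiers were found. Copies of mtDNA were sought in its transcripts as exact windows of 150 bases and, less strictly, of 50 bases. A pseudogene in the list of copies, Gm11478, had no such match and was left out.

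Named were all protein-coding and rRNA genes, tested tRNA genes that were called or among the 4 highest or 2 lowest (which took all 5), Polrmt, Tfam, Tfb2m, Lrpprc and up to 4 called genes per nuclear list and sex by smallest p, and pseudogene copies with a mean of at least 1 CPM. Grsf1, Gm28438, Gm10222, Gm13341, Esm1, C1qa, Uqcrc2, Ndufb8, Atp5o, Ndufb10, Ndufb3 and Cox6b1 were chosen after their values were seen. The members and lists were chosen with earlier results of these data known.

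Replicate counts differed by a chi-square per degree of freedom of at least 20.7, so no library repeated another. To check whether replicate numbers pair WT with S64F/+ libraries, each library's deviation from its group mean was correlated with that of its namesake. All 5 female pairs passed the criterion of 0.1 (0.11 to 0.418). Differently numbered female libraries passed it too, and WT library 4 with S64F/+ library 5 reached 0.494, above every namesake pair. The check therefore cannot show pairing by number, and the labels state none. The reported model has no block, and the fit with the block is given as an alternative. Male namesakes had -0.249 to 0.189, with only the pair numbered 4 above the criterion, while WT library 2 with S64F/+ library 3 had 0.552. In males the check gave no sign of pairing by number but cannot exclude it.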

Additional observations from a re-analysis of the deposited data

Results flagged for a closer look

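In 12 of 92 tests of a group's highest or lowest library by Dixon's criterion, 1 library stood apart from the rest of its group, where chance gives about 1 in 20. Of these, 6 were female S64F/+ library 3, at 2676 CPM for mt-Nd1, 2128 for mt-Nd2, 10779 for mt-Co1, 4398 for mt-Cytb, 1.87 for mt-Tq and 7.15 for mt-Tw, each time the highest of its group. The others were female WT library 4 for mt-Rnr2 (705 CPM, high), female WT library 5 for mt-Tw (1.25 CPM, low), male S64F/+ library 2 for mt-Atp8 (0.803 CPM, high) and for the mitochondrial mRNA share (1.27% of counts, low), male WT library 3 for mt-Nd3 (1.50 CPM, high) and male S64F/+ library 4 for rRNA counts per 100 mRNA counts (5.02, high). The 92 tests share the same libraries and are not independent, so the 12 cannot be weighed against 1 in 20.

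The genotype effect on mt-Nd1 was called different between the sexes, by -0.67 (male minus female log2 fold change, with an adjusted p of 0.0478 from edgeR). This call was close to the threshold. It held in 5 of 18 fits that left out 1 library, and of the other settings 2 kept it and 5 lost it.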

How the results depend on the processing

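In males, 1 gene was called lower in place of 2 with DESeq2 size factors in edgeR, plain library sizes, sizes without mitochondrial and insulin genes, or no filter, and 1 to 2 when 1 library was left out. In females, 2 to 5 were called higher without 1 library, with 2 only without S64F/+ library 3. The male minus female difference was called for 0 genes under those same 4 settings and with the replicate block, for 5 with DESeq2, and for 0 to 5 without 1 library. In S64F/+, 1 gene was called lower in males with DESeq2 size factors, 0 with the other 3 settings, 4 with DESeq2 and 0 to 5 without 1 library. The mitochondrial mRNA share without insulin in the total was 2.18% (WT) and 1.82% (S64F/+) in males and 1.76% (WT) and 2.07% (S64F/+) in females. Male changes turned positive with plain sizes for mt-Rnr1 (0.19), mt-Rnr2 (0.10), mt-Atp8 (0.19), mt-Nd4l (0.0453), mt-Nd5 (0.0341), mt-Nd6 (0.0013) and mt-Tt (0.19), and with sizes without mitochondrial and insulin genes for mt-Rnr1 (0.0352), mt-Atp8 (0.0432) and mt-Tt (0.0445). Female mt-Tp turned to -0.0034 with the latter and -0.05 with the replicate block, which changed no call of a mitochondrial gene within males or females and ended that of mt-Nd1 between the sexes. It also left 0 of the 13 biogenesis regulators called in males. Leaving out 1 library gave male values of -0.14 to 0.0699 for mt-Rnr1, -0.34 to 0.0938 for mt-Atp8, -0.45 to 0.0705 for mt-Nd4l, -0.38 to 0.0554 for mt-Nd5 and -0.19 to 0.18 for mt-Tt, and female values of -0.0217 to 0.51 for mt-Nd3 and -0.31 to 0.20 for mt-Tp. The cause was not tested. Direction and side of the threshold were counted for all tested genes by genotype within each sex, and for called genes in the other comparisons. Of these fold changes, 310 under other settings and 707 without 1 library kept both, most of them not called in the main fit. A call was lost in 16 and 48, gained in 1 and 4, and the direction reversed in 12 and 15. The tested tRNA genes, at 4 to 237 counts per library, and the genes inside the copied stretch are the least precise.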
